A study of Mus musculus with 2 samples.

Results

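Macrophages of the mouse small intestine in which transcripts of both Timd4 and Cd4 were counted, and none of Ccr2, numbered 594 of the 5828 cells profiled. They were found by a rule on the counts themselves. A cell entered the gate with at least 200 detected genes, at most 10% of its unique molecular identifiers (UMIs, 1 per captured transcript) from mitochondrial genes, and at least 0.5% from C1qa, C1qb and C1qc together. It was a member, called double-positive here, with at least 1 UMI of Timd4, at least 1 UMI of Cd4 and 0 UMIs of Ccr2. The gate held 4847 cells, 2639 wild-type and 2208 knockout, of which 231 and 363 were double-positive. Since members were chosen by these counts, the levels of Timd4, Cd4, Ccr2 and C1q are given as a description only.

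Timd4 encodes a receptor for phosphatidylserine, the lipid that dying cells expose, and macrophages use it to hold apoptotic cells before engulfing them. Cd4 is best known as the coreceptor of helper T cells for MHC class II, and some gut macrophages carry it too. In the intestine, Timd4 and Cd4 together are used to mark macrophages that persist locally, whereas Ccr2 is the chemokine receptor through which monocytes leave the bone marrow and replenish the other macrophages of the gut wall. C1q, the first component of the classical complement pathway, is made by mature tissue macrophages.

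The cells came from 2 libraries, 1 per genotype, made with the 10x Genomics 3′ v2 chemistry. The wild-type library came from male C57BL/6J mice from Janvier, and the CCR2-/- library from JAX strain #:004999, which was bred in-house. The source of the animals and the genotype are thus the same split and cannot be told apart, and the age of the animals is not given in the sources used here. Each library pooled 3 to 4 intestines, stripped of mucus and epithelium and digested with Liberase TL. Live CD45+ cells lacking CD3, TCRb, B220, SiglecF, Ly6C and Ly6G and positive for CD11b, MHCII and CD64 were sorted, so the sort removed Ly6C+ monocytes from both genotypes. The wild-type cells ran on 2 lanes, told apart by the barcode suffix.

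The wild-type library held 20766579 UMIs in 3054 cells and the knockout library 7506405 UMIs in 2774 cells. The median cell had 6066 UMIs in the wild type and 2345.5 in the knockout, so that drop-out, the failure to count a transcript that is present, was more frequent in the knockout. The wild-type lanes shared 5 barcode sequences, and the 2 libraries shared 6. With 1 library per genotype there was no replicate and no test was possible. Intervals are 95% and exact, Poisson for summed UMIs and Clopper-Pearson for shares of cells, and they cover counting error only. The lanes hold different cells of the 1 wild-type sample and are no replicates of the genotype either.

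Over all gated cells, Timd4 (chromosome 11, 46810800 to 46844332, GRCm38) stood at 36.7 UMIs per 1000000 counted (CPM; 34.0 to 39.6) in the wild type and 172 CPM (162 to 183) in the knockout. The wild-type lanes gave 37.0 and 36.1 CPM. Cd4 (chromosome 6, 124864692 to 124888221) stood at 95 CPM (90.7 to 99.6) and 221 CPM (210 to 233). Both gate genes were therefore at a higher level per UMI in the knockout library. Ccr2, the gene deleted in the knockout, stood at 299 CPM (291 to 307) in the wild type and at 4.97 CPM (3.38 to 7.06), counted from 31 UMIs, in the knockout.

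Most members were called from very few molecules. The median member had 1 Timd4 UMI in both libraries, and 2 Cd4 UMIs in the wild type and 1 in the knockout. Exactly 1 UMI of each gene was all that placed 72 wild-type cells (31.2%) and 144 knockout cells (39.7%) in the class. At least 2 UMIs of each gene were found in 58 wild-type members (25.1%) and 63 knockout members (17.4%). The double-positive class is thus those cells in which both transcripts happened to be counted, and cells with the same transcripts but a drop-out are in the other classes.

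Cells close to the thresholds were counted on both sides. A C1q share of at least 1% would have kept 169 wild-type and 122 knockout members. A C1q share between 0.5% and 0.75% was seen in 17 wild-type and 111 knockout members, and 3 and 28 otherwise similar cells fell between 0.25% and 0.5% and were left out. Mitochondrial UMIs between 8% and 10% were found in 2 and 6 members, and 0 and 3 cells stood between 10% and 12%. Among gated cells positive for Timd4 and Cd4, 16 wild-type and 1 knockout cell were left out for 1 Ccr2 UMI, and 23 and 1 for 2 or more.

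The double-positive class made up 8.75% of gated wild-type cells (7.70 to 9.90) and 16.4% of gated knockout cells (14.9 to 18.1). The condition on Ccr2 left out another 39 wild-type cells with Timd4 and Cd4 (1.48%) and 2 knockout cells (0.0906%). The rule itself thus lowers the wild-type share more. The wild-type share was 8.51% on lane 1 and 9.29% on lane 2. Since the knockout cells were shallower, the shares were also taken at equal depth. After each cell was thinned at random to 1000 UMIs, 16 of 2639 wild-type cells remained double-positive, 0.606% (0.347 to 0.983), against 73 of 2056 knockout cells, 3.55% (2.79 to 4.44). This left out 152 knockout cells under that depth. At 2000 UMIs the shares were 1.90% (1.40 to 2.51) and 11.3% (9.68 to 13.1), with 113 wild-type and 799 knockout cells left out. The intervals of the 2 libraries did not overlap at either depth.

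Unthinned cells of like depth gave the same order. Between 2000 and 4000 UMIs, the double-positive share was 6.57% (4.67 to 8.95) in the wild type, whereas the knockout stood at 18.8% (16.4 to 21.5). Between 4000 and 8000 UMIs the shares were 10.1% (8.29 to 12.1) and 28.7% (24.6 to 33.0). Wild-type cells with 8000 or more UMIs gave 9.57% (7.77 to 11.6), no more than the bin before. The lanes of the wild type, thinned to 1000 UMIs, differed from each other, with 0.329% on lane 1 and 1.22% on lane 2. More double-positive cells and fewer of the other gated cells cannot be told apart in a share.

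**Figure D1:**
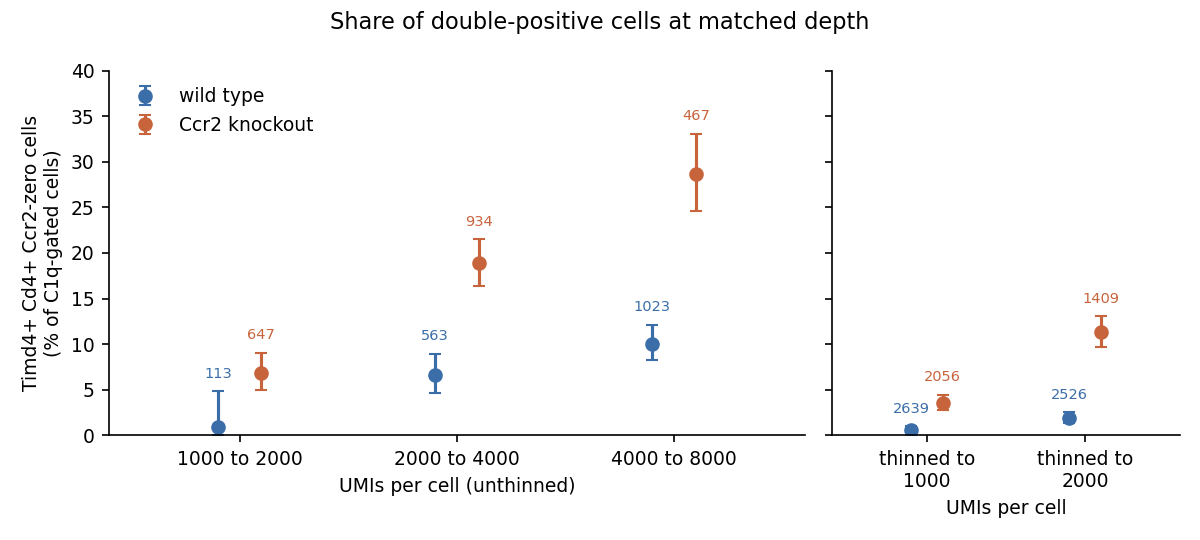
Share of C1q-gated cells (y, percent) with Timd4 and Cd4 and without Ccr2, by UMIs per cell (left, unthinned; right, thinned to a fixed number), for the wild-type and the knockout library. Bars are exact 95% Clopper-Pearson intervals for counting error and the number over each point is the number of cells. The knockout point lies above the wild-type point in every pair, and within each panel the share is larger at greater depth in both libraries.

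Free RNA in the suspension can put a stray UMI into any droplet, so the gate genes were read in cells that should lack them. Cells under the C1q threshold with at least 2 of 6 B or plasma cell genes numbered 40 in the wild type (median 8151 UMIs) and 34 in the knockout (median 3575). Unthinned, Timd4 was counted in 0% of them in the wild type and 11.8% in the knockout, Cd4 in 15% and 11.8%, and both in 0 of 40 and 1 of 34. After thinning to 1000 UMIs, Timd4 was counted in 0 of 40 and 1 of 34 and Cd4 in 0 of both. Double-positive cells then numbered 0 of 40 and 0 of 34, which at 3 counts of the total allows shares of up to 7.5% and 8.82%. At 2000 UMIs they numbered 0 of 40 and 1 of 26. Among gated cells thinned to 1000 UMIs Timd4 was counted in 3.90% and 15.4%, and Cd4 in 9.78% and 20.4%. At this number of cells the thinned wild-type and knockout shares are under the limit that a count of 0 allows.

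How far detection of one gate gene went with detection of the other varied with depth. After thinning to 1000 UMIs, Cd4 was counted in 16.5% (9.92 to 25.1) of wild-type cells with Timd4 and in 9.50% (8.39 to 10.7) of those without it, with 9.72% against 9.43% on lane 1. In the knockout the shares were 23.0% (18.5 to 28.1) and 19.9% (18 to 21.9), whose intervals overlapped. At 2000 UMIs they were 25.5% against 16.2% in the wild type and 40.9% against 31.5% in the knockout. In unthinned cells between 4000 and 8000 UMIs, Cd4 was counted in 60.2% of wild-type cells with Timd4 and in 35.9% of those without it. The knockout values at that depth were 58.5% and 44.5%. Between 2000 and 4000 UMIs they were 53.4% against 30.2% in the wild type and 51.9% against 42.1% in the knockout. Between 1000 and 2000 UMIs the knockout shares were 32.4% and 30.9%, and in the wild type 1 of 7 cells with Timd4 and 24 of 106 without it had Cd4. Among knockout cells with 500 to 1000 UMIs they were 29.4% of 17 cells and 20.7% of 135.

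For the gene comparisons each double-positive cell was paired within its own library with a double-negative cell of the same C1q gate, without Timd4 and Cd4 and of nearly equal depth. This paired 231 of 231 wild-type members, with median depths of 6700 and 6708 UMIs, and 358 of 363 knockout members, with 3401.5 UMIs in both sets. UMIs were summed over each set and scaled to CPM. Ccr2 was counted in 51.5% of the paired wild-type double-negative cells and in 3.07% of the knockout ones, whereas the rule holds it at 0 in the members. In the wild type the contrast therefore also sets Ccr2-zero cells against many Ccr2+ cells. Values against double-negative cells without Ccr2 are given for some genes and lists only. Other wild-type ratios may change in that comparison.

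The macrophage part of the expected identity was set by the sort and the C1q gate, in members and comparison cells alike. All 12 core macrophage genes were compared, and none was past 1.5-fold in both libraries in either direction. That count is near the 2.29% and 1.29% of all genes. The list had median log2 ratios of 0.35 in the wild type and -0.05 in the knockout. At any size 5 of the 12 were higher and 1 lower in both, beside 37.5% and 24.6% of all genes. With comparison cells that had no Ccr2 the medians were 0.20 and -0.02. Csf1r, the receptor for the growth factor CSF1, stood at 1364 CPM (1309 to 1420) against 756 CPM (715 to 798) in the wild type, a log2 ratio of 0.85. In the knockout it stood at 1916 CPM against 1412 CPM, a log2 ratio of 0.44. Against cells without Ccr2 the ratios of Csf1r were 0.48 and 0.42, and those of Lyz2, another core gene, -0.31 and -0.33. T cell genes were nearly missing: the list summed to 4.66 CPM in wild-type and 4.73 CPM in knockout members, with 4 and 6 of 9 genes at 0. A UMI of Cd3 or of a T cell receptor constant gene was counted in 1 of 231 and 2 of 358 members, so the Cd4 counted here came with macrophage and not with T cell transcripts.

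The residency part could not be read from the listed markers. Of 16 genes listed as markers of resident macrophages, 10 were abundant enough to compare, 0 were at least 1.5-fold higher in the double-positive cells of both libraries and 1 was lower. Over all genes compared 2.29% were higher and 1.29% lower in both, so a count of 0 of 10 is near that background. At any size 0 of the 10 were higher and 2 lower in both libraries, where 37.5% and 24.6% of all genes were. The median log2 ratio of the list was 0.28 in the wild type and -0.18 in the knockout, beside 0.07 and 0.05 over all genes. Against cells without Ccr2 the medians were -0.05 and -0.20. Cd163, a haemoglobin scavenger receptor, stood at 51.2 CPM (41.1 to 63.1) against 37.9 (29.2 to 48.3) in the wild type and at 118 CPM (100 to 139) against 163 (141 to 186) in the knockout. Its log2 ratios against cells without Ccr2 were -0.33 and -0.48. Mrc1, the mannose receptor, differed by a log2 ratio of 0.07 and -0.05.

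Fcrls, an Fc receptor-like gene of tissue macrophages, was the member of that list that was lower in both libraries, at 48.9 against 74.5 CPM (log2 -0.60) and at 41.0 against 116 CPM (log2 -1.48). F13a1, which encodes the A subunit of coagulation factor XIII, was close in the wild type (log2 -0.30) and at 22.1 against 69.3 CPM in the knockout (log2 -1.61). Against cells without Ccr2 its ratios were -0.81 and -1.64, so that F13a1 was then past the threshold in both libraries too. Vsig4 had 0 UMIs in the members, and Folr2, Lyve1 and Cbr2 were below the expression filter. The cells are called by their gate in what follows.

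Of 4588 genes with a mean of at least 20 CPM, 105 were at least 1.5-fold higher in the double-positive cells of both libraries, which is 2.29% of the genes compared, and 59 were at least 1.5-fold lower in both, which is 1.29%. Taken alone, the wild type gave 355 higher genes (7.74%) and the knockout 337 (7.35%). The shared genes were 29.6% of the wild-type list and 31.2% of the knockout list. For lower genes, 181 (3.95%) and 194 (4.23%) were counted, and the shared ones were 32.6% and 30.4% of them. In the 2 wild-type lanes, 104 of the 105 higher and 56 of the 59 lower genes had the same sign. The lanes hold the same cells that gave the wild-type ratios, so these counts are no separate support. With comparison cells that had no Ccr2, 61 genes were higher and 41 lower in both libraries, of which 53 and 29 were among the genes above.

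**Figure D2:**
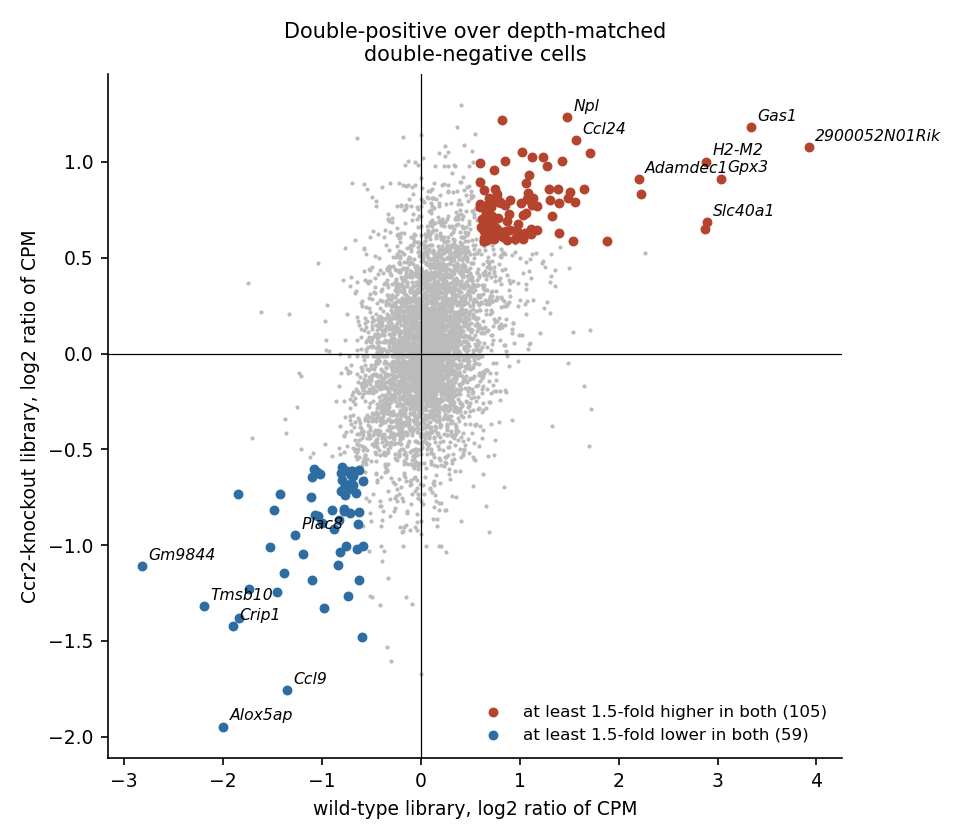
Log2 ratio of double-positive over depth-matched double-negative cells for 4588 genes, in the wild-type library (x) and the knockout library (y). Coloured points are at least 1.5-fold higher (105) or lower (59) in both libraries. Gas1, H2-M2, Gpx3 and Adamdec1 lie far to the right and closer to 1 on the y axis, since their wild-type ratios are larger.

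Npl, a lyase that breaks down sialic acid, led the shared higher genes by its smaller ratio. It lies on chromosome 1, 153503015 to 153550045. In the wild type it stood at 393 CPM (364 to 424) in double-positive and 140 CPM (123 to 159) in double-negative cells, a log2 ratio of 1.48. In the knockout the levels were 245 CPM (218 to 273) and 104 CPM (86.6 to 123), a log2 ratio of 1.23. No interval of the double-positive cells reached that of the double-negative cells. Against wild-type cells without Ccr2 the ratio was 0.90.

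Adamdec1, a secreted metalloprotease typical of gut macrophages (chromosome 14, 68563380 to 68582095), stood at 842 CPM (799 to 886) against 182 CPM (163 to 204) in the wild type. Its knockout levels were 1358 CPM against 723 CPM, and the log2 ratios were 2.20 and 0.91. Against wild-type cells without Ccr2 the ratio of Adamdec1 was 1.52. Gpx3, a secreted glutathione peroxidase, stood at 246 CPM (223 to 270) against 29.1 CPM (21.6 to 38.4) and at 202 CPM against 107 CPM. In both genes the knockout double-negative cells stood higher than the wild-type ones.

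Mmp2, a gelatinase, stood at 72.7 CPM against 30.3 CPM in the wild type and at 80.5 against 39.0 CPM in the knockout. Ccl24, an attractant of eosinophils, had levels of 182 against 60.6 CPM and of 204 against 94.0 CPM. For Tmem2, which cleaves hyaluronan at the cell surface, the levels were 51.8 against 15.1 CPM and 91.5 against 43.8 CPM. The wild-type lanes gave Ccl24 log2 ratios of 1.12 and 2.18 and Tmem2 ratios of 1.37 and 2.59. The lane ratios of Mmp2 were 1.3 and 1.14. A higher level in both libraries and both lanes was a condition for the leading higher genes. The wild-type ratio of Ccl24 was -0.35 when members had at least 2 UMIs of each gate gene.

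Gas1 encodes a surface protein that helps cells receive hedgehog signals. It stood at 68.1 CPM (56.3 to 81.6) against 5.82 CPM (2.79 to 10.7) in the wild type and at 84.4 CPM (69.2 to 102) against 36.7 CPM (26.8 to 48.9) in the knockout. H2-M2, a non-classical MHC class I gene, stood at 157 CPM (139 to 177) against 20.4 CPM (14.2 to 28.3) and at 122 CPM against 60.6 CPM. The non-coding RNA 2900052N01Rik rested on 85 and 4 UMIs in the wild type, 49.5 against 2.33 CPM, and stood at 98.6 against 46.2 CPM in the knockout. The wild-type log2 ratios of Gas1, H2-M2 and 2900052N01Rik were 3.34, 2.89 and 3.92, and their knockout ratios lay between 1.0 and 1.18. Against wild-type cells without Ccr2 the ratios were 2.41, 2.44 and 2.84. Gpx3, at 3.03 and 0.91, was the other leading gene with such a gap.

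The others of the 15 leading genes had wild-type log2 ratios between 1.02 and 1.42 and knockout ratios between 0.89 and 1.05. They were Slc35a5, C130050O18Rik, Klra17, Sc5d, Midn and Gpr55. Klra17 belongs to the Ly49 receptor family, Sc5d makes cholesterol precursors, and Gpr55 is a receptor for lysophosphatidylinositol. After thinning to 1000 UMIs, Adamdec1 was counted in 52.4% of wild-type double-positive and 17.2% of double-negative cells, and in 5% of the B or plasma marker cells. The knockout shares were 66.5%, 44.5% and 20.6%. Knockout double-positive and double-negative shares were close for Slc35a5 (3.91% and 3.98%), Klra17 (3.07% and 3.01%) and Gpr55 (6.42% and 6.27%). In the wild type these genes had 4.76% and 1.85%, 5.19% and 3.31%, and 3.03% and 1.46%. C130050O18Rik (10.9% and 6.99%), Sc5d (2.79% and 2.29%) and Midn (6.98% and 4.70%) had larger knockout shares in double-positive cells, but the intervals overlapped for each.

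Alox5ap, the protein that hands arachidonic acid to the leukotriene pathway (chromosome 5, 149264767 to 149288153), led the lower genes. Its level was 18.6 CPM (12.7 to 26.3) against 77.5 CPM (64.9 to 91.8) in the wild type, a log2 ratio of -2.00. In the knockout it was 33.1 CPM (23.9 to 44.8) against 131 CPM (111 to 152), a log2 ratio of -1.95. The ratios were of similar size in both libraries and in both lanes, -2.03 and -1.96, and stood at -1.62 and -1.88 against cells without Ccr2.

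Tmsb10, which binds actin monomers, stood at 200 CPM (180 to 223) against 918 CPM (873 to 964) in the wild type and at 113 CPM against 283 CPM in the knockout. Crip1, a small LIM-domain protein, stood at 150 CPM against 560 CPM and at 69.4 CPM against 188 CPM. Lgals1, the lectin galectin-1, had levels of 64.0 against 216 CPM and of 27.6 against 66.1 CPM. Without Ccr2 in the comparison cells the wild-type log2 ratios were closer to 0, at -1.49 for Tmsb10, -1.17 for Crip1 and -0.89 for Lgals1, against -2.19, -1.90 and -1.74. Marcksl1, Ahnak and Emp3 had ratios between -1.01 and -1.53.

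The 15 leading lower genes held 3 chemokines, and the leading higher genes held Ccl24. Ccl5, an attractant of T cells, stood at 18.6 CPM against 69.3 CPM in the wild type and at 15 against 40.6 CPM in the knockout. Ccl9 stood at 27.4 against 71.6 CPM and at 20.5 against 71.7 CPM. Ccl2, the main ligand of Ccr2, stood at 95.4 CPM (81.4 to 111) against 192 CPM (171 to 213) and at 468 CPM (431 to 507) against 865 CPM (814 to 918). A lower level in both libraries and both wild-type lanes was a condition for the leading lower genes.

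Clec4b1, Fam129a and the antisense transcript B930036N10Rik had log2 ratios between -0.98 and -1.46. The count of B930036N10Rik may hold reads of an overlapping gene, as the strand setting of the counting is not given in the sources used here. Gm9844 stood at -2.82 and -1.11, and such predicted genes can share sequence with a near-identical copy, so its value is uncertain. Plac8, a marker of monocyte-derived cells, had ratios of -1.27 and -0.95 but of -0.02 and -0.17 against cells without Ccr2. Fam129a also left the list with that comparison, at -0.38 in the wild type.

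Receptors and bridging molecules for apoptotic cells differed by small amounts. Of 26 listed genes 14 were compared, of which 0 were at least 1.5-fold higher in both libraries and 1 was lower, near the 2.29% and 1.29% of all genes. At any size 9 of the 14 were higher in both, beside 37.5% of all genes, and the medians were 0.30 and 0.16. Mertk, a receptor for engulfment, stood at 57.0 CPM (46.3 to 69.5) against 26.8 CPM (19.6 to 35.7) in the wild type, with lane ratios of 1.02 and 1.18. In the knockout it stood at 111 CPM (93.7 to 131) against 79.7 CPM (64.8 to 96.9), a log2 ratio of 0.48. Cd36, a scavenger receptor, was the lower gene, at 16.9 CPM (11.3 to 24.2) against 48.9 CPM (39.0 to 60.6) and at 86.8 CPM (71.3 to 105) against 154 CPM (133 to 177).

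Axl, another engulfment receptor, had log2 ratios of 0.13 and 0.32, and Gas6, its ligand, of 0.54 and -0.12. Stab1, which also binds phosphatidylserine, had ratios of 0.65 and 0.14, and Itgav, an integrin subunit that bridges to apoptotic cells, of 0.75 and 0.17. For the other Tim family genes, Havcr2 had ratios of 0.68 and 0.27 and Havcr1 had 0 UMIs. Against wild-type cells without Ccr2, Gas6 stood at 0.17 and Havcr2 at 0.11. Among 5 compared genes that pair with Cd4 or lie next to it, 1 was at least 1.5-fold higher in both libraries, beside 2.29% of all genes. This was Lag3, a chromosomal neighbour of Cd4 and a ligand of MHC class II, at 91.4 against 57.7 CPM and 55.2 against 34.3 CPM. Its wild-type ratio was below the threshold against cells without Ccr2 (0.50).

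Lysosomal genes were higher in most cases by small amounts. Of 18 listed genes 18 were compared, and 15 were higher at any size in both libraries, where 37.5% of all compared genes were. Only 2 were past 1.5-fold in both, beside 2.29% of all genes. The medians of the list were 0.45 and 0.29. Acp5, tartrate-resistant acid phosphatase, stood at 1143 CPM (1093 to 1195) against 521 CPM (487 to 556) and at 707 CPM (662 to 755) against 402 CPM (367 to 438). Ctsl, the protease cathepsin L, stood at 431 against 282 CPM and at 362 against 229 CPM.

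As a share of each cell's UMIs, the lysosomal list took a median of 2.16% of the UMIs of wild-type double-positive and 1.48% of double-negative cells, and 2.18% and 1.5% in the knockout. The values were thus nearly the same in both libraries. Against wild-type cells without Ccr2, Acp5 stood at 0.56 and Ctsl at 0.15, below the threshold. Cd63, a lysosomal membrane tetraspanin, stood at 546 against 167 CPM in the wild type and at 294 against 269 CPM in the knockout, where the intervals overlapped. Its wild-type log2 ratio against cells without Ccr2 was 1.06.

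Of 10 compared growth factors, ligands and matrix proteases, 4 were at least 1.5-fold higher in both libraries and 0 lower, beside 2.29% and 1.29% of all genes, with medians of 0.73 and 0.55. Wnt4, a secreted Wnt ligand, stood at 280 CPM (255 to 306) against 58.8 CPM (47.9 to 71.5) in the wild type and at 335 CPM (304 to 369) against 188 CPM (165 to 214) in the knockout. Mmp9, a gelatinase, stood at 487 against 306 CPM and at 642 against 426 CPM. Mmp13, a collagenase, stood at 491 against 285 CPM and at 1151 against 665 CPM, and Adamdec1 was the fourth. Wnt4 and Adamdec1 stayed past the threshold against cells without Ccr2, and Mmp9 (0.15) and Mmp13 (0.47) did not in the wild type. Igf1, insulin-like growth factor 1, was higher in the wild type alone, at 65.8 against 19.2 CPM, and stood at 112 against 137 CPM in the knockout. Its wild-type log2 ratio against cells without Ccr2 was 0.79.

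In the list for lipid and iron, 3 of 12 compared genes were at least 1.5-fold higher in both libraries and Cd36 was lower. Over all genes compared 2.29% were higher and 1.29% lower. The medians of the list were 0.41 and 0.15. Slc40a1, the iron exporter ferroportin, stood at 119 CPM (103 to 136) against 15.1 CPM (9.89 to 22.2) in the wild type and at 326 CPM (295 to 359) against 202 CPM (178 to 229) in the knockout. Its wild-type log2 ratio was 2.89, and 2.11 against cells without Ccr2. Cd9, a membrane tetraspanin, was higher by smaller ratios (0.68 and 0.74) and was below the threshold in the wild type in that comparison (0.28).

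**Figure D3:**
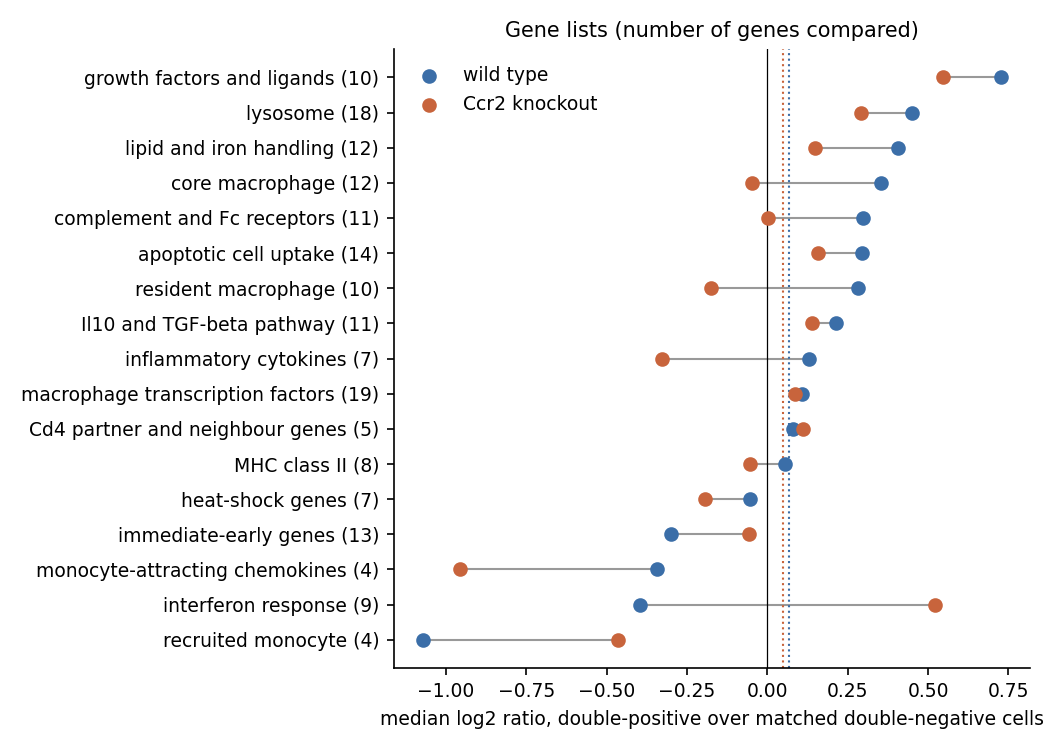
Median log2 ratio of double-positive over depth-matched double-negative cells (x) for each gene list with at least 4 genes compared (number in brackets), in the wild-type and knockout libraries. The dotted lines are the medians over all genes compared, 0.07 and 0.05. Growth factors and ligands and lysosomal genes lie to the right of both lines in both libraries, and recruited monocyte genes and monocyte-attracting chemokines to the left.

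Of 8 compared MHC class II genes, which present antigen to helper T cells, 0 passed 1.5-fold in both libraries, near the 2.29% and 1.29% of all genes, and their medians were 0.05 and -0.05. In the list of complement and Fc receptor genes 1 of 11 was higher, Itgax, which encodes CD11c, at 212 CPM (191 to 235) against 114 CPM (98.7 to 131) and at 242 CPM (216 to 271) against 146 CPM (125 to 169). Itgax stood at 0.47 against wild-type cells without Ccr2. None of the 19 macrophage transcription factors was past the threshold in both libraries. In the IL-10 and TGF-beta list Socs3, a brake on cytokine signals, was lower (-0.64 and -0.89), and Il10 itself had ratios of 0.09 and 0.67. For Socs3 the wild-type ratio was -0.26 against cells without Ccr2.

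The sort removes Ly6C+ cells, and Ly6c2 and Chil3 had 0 UMIs in the paired members of both libraries. Of 4 compared genes of recruited monocytes, Plac8 and Ms4a4c were at least 1.5-fold lower in both libraries, where 1.29% of all genes were. Both left the list when the comparison cells had no Ccr2 (Ms4a4c -0.18 and -0.62). Among 4 chemokines that attract monocytes, Ccl2 was lower in both. Ccl7 stood at -0.52 and -1.03, Ccl12 at 0.01 in the wild type and -1.67 in the knockout, and Ccl8 at -0.17 and 0.75. Against cells without Ccr2, 3 of the 4 were lower past the threshold in both libraries, where 41 of 4599 genes were. They were Ccl2 at -1.06 and -0.91, Ccl7 at -0.99 and -0.99 and Ccl12 at -0.70 and -1.68. Ccl8 then stood at -0.40 and 0.63.

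The medians of the inflammatory cytokine list were 0.13 and -0.33, those of the immediate-early list -0.30 and -0.06, and those of the heat-shock list -0.05 and -0.19. Of the immediate-early genes, which cells switch on within minutes of a stimulus, 1 of 13 was at least 1.5-fold lower in both libraries, Ier2 (-0.78 and -0.82). Of all genes 1.29% were that much lower in both. At any size 8 of the 13 were lower in both, beside 24.6% of all genes. The wild-type value of Ier2 was -0.43 against cells without Ccr2. Interferon response genes had a median of -0.40 in the wild type and 0.52 in the knockout, and 0 of 9 passed the threshold in both. Stmn1, a gene of dividing cells, was lower in both libraries, but the wild-type lanes had opposite signs, -1.46 and 1.02.

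Transcripts of other cell types were measured beside these values. Pecam1, an endothelial gene that macrophages also carry, stood at 87.9 against 32.6 CPM in the wild type and at 161 against 109 CPM in the knockout. Jchain, of plasma cells, stood at 322 against 102 CPM in the wild type, with lane ratios of -0.45 and 3.19, and at 161 against 181 CPM in the knockout. Haemoglobin genes summed to 14.5 against 8.15 CPM and to 418 against 1806 CPM. The median knockout cell had 0.0415% and 0.0385% of its UMIs from them, and 1 haemoglobin-rich cell was among the double-negative cells of the knockout. Dendritic cell genes summed to 39.6 against 62.3 CPM and to 27.6 against 35.9 CPM, with 4 of 9 at 0 in the members of both libraries.

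Granulocyte genes summed to 2.91 CPM in the wild-type and 13.4 CPM in the knockout members, with 7 of 9 genes at 0. Epithelial genes summed to 246 against 216 CPM and 149 against 151 CPM. Ribosomal protein genes took a median of 14.5% of the UMIs of a wild-type double-positive cell and 19.8% of a double-negative cell, and 10.5% and 13.4% in the knockout. The part of these transcripts in the results above was not tested.

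Cells with 1 of the gate genes stood between the double-positive and the double-negative cells in the wild type for each gene plotted by class. In the wild type 155 gated cells (5.87%) had Timd4 without Cd4 and 702 (26.6%) Cd4 without Timd4. The knockout counts were 364 (16.5%) and 542 (24.5%). In all cells of each wild-type class, Npl stood at 133 CPM with neither gene, 240 with Cd4 only, 216 with Timd4 only and 393 with both. The knockout values were 122, 185, 156 and 245 CPM. For Adamdec1 the wild-type levels were 193, 486, 572 and 842 CPM and the knockout levels 831, 1219, 1047 and 1341 CPM.

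H2-M2 had wild-type levels of 13.7, 54.9, 88.4 and 157 CPM in the same order of classes, and Gpx3 of 35.1, 98.3, 130 and 246 CPM. In the knockout, H2-M2 stood at 67.1, 116, 77.1 and 121 CPM and Gpx3 at 113, 187, 158 and 204 CPM, where cells with Cd4 only and with both had overlapping intervals. Pla2g2d, a secreted phospholipase, went from 89.2 CPM with neither gene to 689 CPM with both in the wild type. Its knockout levels were 294, 408, 449 and 433 CPM, so that the 3 positive classes had overlapping intervals. Among lower genes, Tmsb10 stood at 972, 532, 586 and 200 CPM in the wild type and at 229, 125, 158 and 113 CPM in the knockout.

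**Figure D4:**
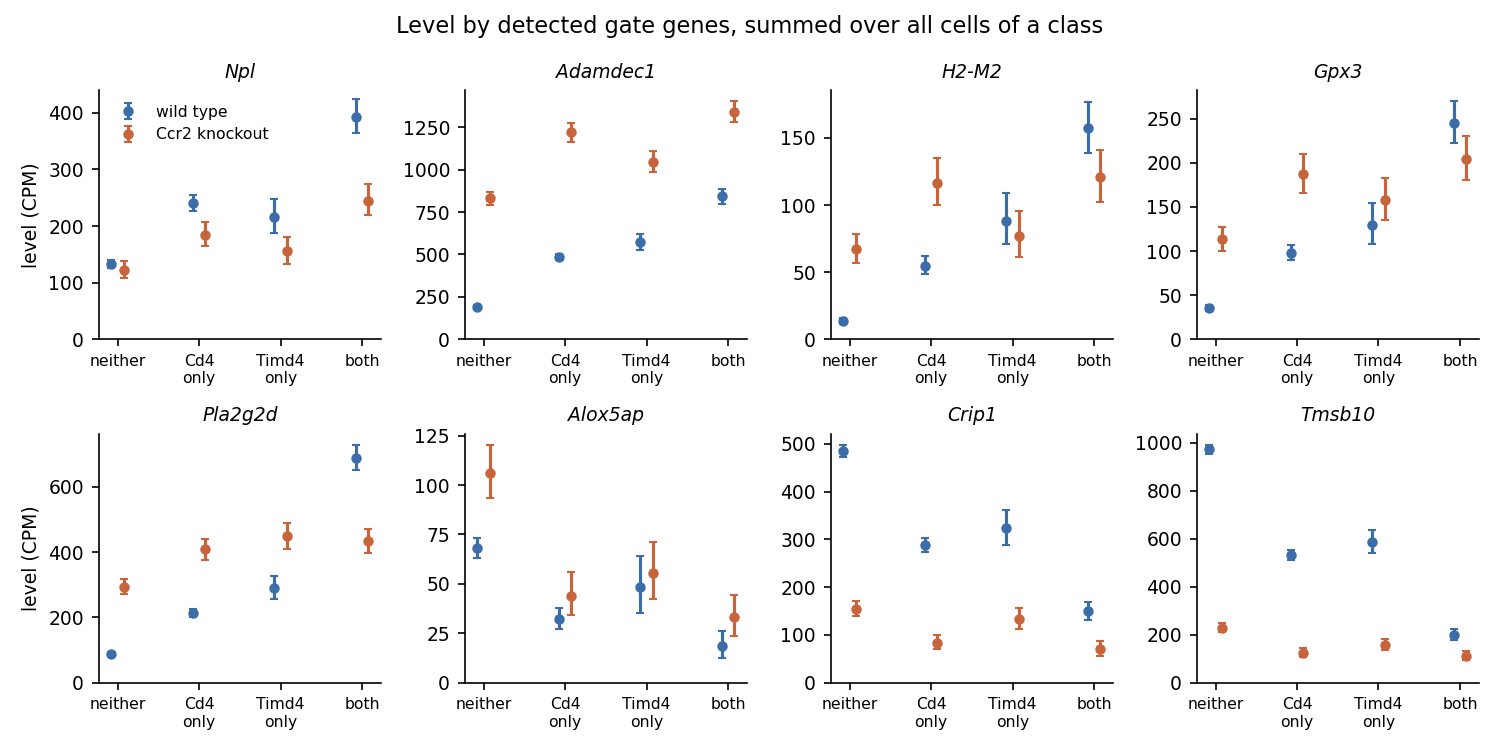
Level in CPM (y, from 0) of 8 genes summed over all cells without Timd4 and Cd4, with Cd4 only, with Timd4 only and with both (x), in the wild-type and knockout libraries. Bars are exact 95% Poisson intervals for counting error. Wild-type cells with both gate genes are highest for the first 5 genes and lowest for Alox5ap, Crip1 and Tmsb10, with single-positive cells in between.

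Over the 105 shared higher genes the median log2 ratio of double-positive cells was 0.87 and 0.73 to double-negative cells. To depth-matched cells with Timd4 only it was 0.43 and 0.29, and to those with Cd4 only 0.37 and 0.20. For the 59 lower genes the medians were -0.81 and -0.83, then -0.58 and -0.37, then -0.38 and -0.28. These comparisons share the double-positive cells and are set side by side as a description.

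Against cells with Timd4 only, 18 of 4724 genes were at least 1.5-fold higher in both libraries (0.381%) and 24 lower (0.508%). Taken alone, the wild type gave 4.7% higher and 3.68% lower, and the knockout 3.2% and 3.77%. The leading higher genes were Tmem206, an acid-activated chloride channel (log2 1.36 and 0.83), Ptgr2, an enzyme that reduces prostaglandins (1.01 and 0.93), Epb41l3, a membrane cytoskeleton protein (0.93 and 0.93), Abcb1a, a drug efflux pump (0.93 and 0.91), and Kdm4a, a histone demethylase (0.97 and 0.75). Over all wild-type cells with Timd4 only, each of these genes rested on 11 to 16 UMIs. In the wild type the intervals of members and of Timd4-only cells overlapped for each. Those of Tmem206 were 17.1 to 32.4 and 5.64 to 20.2 CPM. In the knockout they overlapped for Tmem206, Ptgr2 and Kdm4a but not for Epb41l3 and Abcb1a. Ptgr2 stood at 30.8 CPM in wild-type members and 24.8 CPM in double-negative cells. F13a1 was lower, at 20.7 against 50.7 CPM in the wild type and at 23.7 against 68.9 CPM in the knockout. The other lower leading genes were Ccl5 (-1.67 and -1.62), Nolc1 (-0.99 and -0.94) and Gm15284 and Defa24. Defa24 is a defensin of Paneth cells (-2.49 and -0.98), and its part from epithelial RNA was not tested.

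Against cells with Cd4 only the differences were fewer, with 7 of 4647 genes higher (0.151%) and 11 lower (0.237%) in both libraries. That comparison had 231 wild-type and 345 knockout pairs, where the one with Timd4 only had 145 and 318. The counts therefore rest on sets of unequal size, and their difference was not tested. Alone, the wild type gave 2.8% higher and 1.85% lower, and the knockout 1.98% and 2.82%. Cxcl14, a chemokine, stood at 36.1 against 16.3 CPM in the wild type and at 32.2 against 13.6 CPM in the knockout. Mfsd11, Larp4, Nosip and Socs2, a brake on growth hormone signals, followed with ratios between 0.60 and 1.13. Over all cells of the wild-type classes, however, Larp4 stood at 28.5 CPM (21.1 to 37.7) against 27.1 CPM (22.7 to 32.1). The wild-type intervals of Mfsd11, Nosip and Socs2 also overlapped there, and those of Cxcl14 did not. Top2a and Stmn1, genes of dividing cells, were lower (-1.36 and -0.86, and -0.85 and -1.69), as were Lbr, Arrdc1 and Ccl9. The paired comparison cells had Ccr2 in 25.5% of wild-type and 0.290% of knockout cells.

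Double-positive cells of the knockout were then set against those of the wild type, as all cells of the class. Of 5246 genes 466 (8.88%) were at least 2-fold higher in the knockout and 278 (5.3%) at least 2-fold lower. Double-negative cells gave 594 (11.3%) and 252 (4.8%) of the same genes, and both classes come from the same 2 libraries. The median log2 ratio was 0.14 in double-positive and 0.20 in double-negative cells. With median-of-ratios scaling the double-positive median was -0.03 and the split became 311 higher and 471 lower, so that directions hold relative to a shift of that size.

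All 14 immediate-early genes compared were at least 2-fold higher in knockout double-positive cells, where 8.88% of all genes were. Their median log2 ratio was 2.0, beside 1.89 in double-negative cells. Egr1, a zinc-finger factor of this group, stood at 131 CPM (114 to 149) in wild-type and 1368 CPM (1305 to 1433) in knockout members. Inflammatory cytokines had medians of 2.07 and 2.16, with 7 of 8 genes at least 2-fold higher in the members. Heat-shock genes were lower, at -0.94 and -0.82, and MHC class II genes stood at -0.62 and -0.61. In each of these groups the values were close in double-positive and double-negative cells.

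Other leading higher genes were Tmem88 (2.91 against 39.9 CPM), Vwa1 (26.2 against 263 CPM), Gm26532 (22.1 against 215 CPM) and Csrnp1 (17.5 against 154 CPM), with log2 ratios from 3.07 to 3.39 in double-positive and from 2.74 to 3.29 in double-negative cells. Haemoglobin transcripts were among them: Hbb-bs stood at 6.98 CPM in wild-type and 295 CPM in knockout members, and Hba-a1 at 4.07 and 51.5 CPM, while knockout double-negative cells had 680 CPM of Hbb-bs. Hba-a2 rested on 3 wild-type UMIs, 1.75 CPM (0.36 to 5.10), against 52.2 CPM (40.6 to 66.2). No double-positive cell had haemoglobin as 5% or more of its UMIs. These genes have near-identical copies, and their counts may be divided between them.

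Leading lower genes were Nme1, a nucleoside diphosphate kinase, at 176 CPM (156 to 197) in wild-type and 36.9 CPM (27.2 to 48.9) in knockout members, and Hspa1a, a heat-shock protein, at 764 CPM (723 to 806) and 179 CPM (157 to 203). Uqcrb, a subunit of respiratory complex III, stood at 487 and 118 CPM. Mrps15, Apoa1bp, Psmc5, Ifitm1 and Fdps, a cholesterol synthesis enzyme, had log2 ratios from -2.06 to -1.91, and from -1.65 to -1.05 in double-negative cells. Ifitm1 stood at -0.07 when wild-type lane 2 alone was used, so its value rests on lane 1.

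Genes that separated the classes in the wild type differed in how they stood in the knockout. Pla2g2d was lower in knockout than in wild-type members, 433 CPM (398 to 470) against 689 CPM (650 to 729), and higher in knockout than in wild-type double-negative cells, 294 against 89.2 CPM. H2-M2 stood at 121 against 157 CPM in members and at 67.1 against 13.7 CPM in double-negative cells. Log2 ratios, knockout over wild type, were 0.67 in members and 2.10 in double-negative cells for Adamdec1, 0.29 and 2.40 for Gas1, -0.26 and 1.66 for Gpx3 and 1.03 and 3.67 for 2900052N01Rik. In each of these genes the knockout to wild-type ratio was larger in double-negative than in double-positive cells. Apart from the pairing, this restates their larger wild-type ratios of double-positive to double-negative cells and is no further result. No test of that difference was possible.

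Some genes stood the other way. Vim, the intermediate filament vimentin, had knockout to wild-type log2 ratios of -1.05 in double-positive cells (122 to 58.4 CPM) and -2.53 in double-negative cells (472 to 81.2 CPM). For Tmsb10 the ratios were -0.82 and -2.08. In 120 members of each library paired by depth, the ratio was -0.44 for Vim and -0.07 for Tmsb10, so that Vim was then under the 2-fold threshold, where Tmsb10 already stood. Slc7a11, the cystine importer, stood at 2.05 and 0.83, and Gpr141 at 1.21 and 0.08. Gm5093 had ratios of 2.09 and 0.94. Over the growth factor and ligand list the median was 0.67 in double-positive and 1.65 in double-negative cells, over the resident list 0.25 and 1.14, and over the recruited monocyte list -0.24 and -1.39. The rule takes Ccr2 out of the members of both libraries but leaves it in wild-type double-negative cells, and its part in these differences was not tested.

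**Figure D5:**
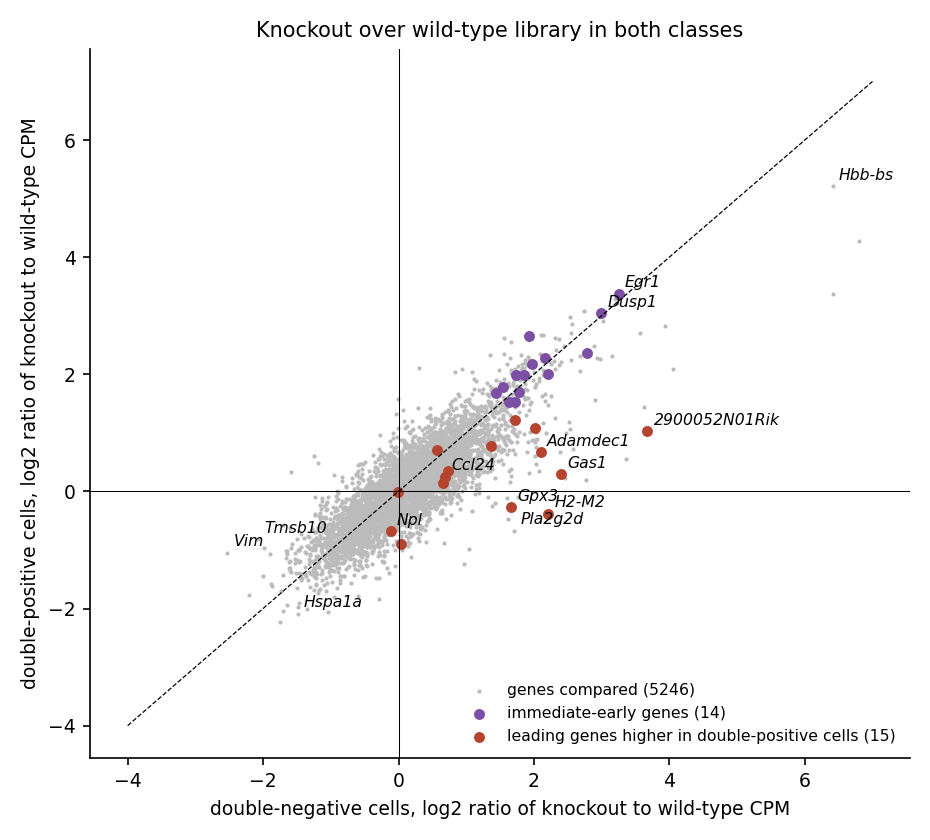
Log2 ratio of knockout over wild-type CPM for 5246 genes in double-negative (x) and double-positive cells (y); the dashed line marks equal ratios. The 14 immediate-early genes lie near the line at high values, and leading genes of double-positive cells such as Gas1, H2-M2, Gpx3 and Adamdec1 lie below it.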

How the data were processed

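The deposited matrices hold whole UMI counts per gene and cell, and per the submitters' processing notes Cell Ranger 3.0.1 and the build mm10 were used, with no further step given in the sources used here. Of 27998 genes, 98.7% were found in GENCODE M21, which gave positions on GRCm38. Counts of C1q-gated cells were thinned to 1000 UMIs (seed 1) for shares. For genes, each double-positive cell was paired without reuse with a double-negative cell of the same library within 0.1 log2 of depth, UMIs were summed and scaled to CPM, and log2 ratios took a pseudocount of 1 CPM, which understates the change of low genes. Genes with a mean of at least 20 CPM were compared. The gate genes Timd4, Cd4, Ccr2, C1qa, C1qb and C1qc were left out.

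A gene was counted at 1.5-fold in both libraries, or at 2-fold between genotypes. Named are the 15 highest and lowest by the smaller of the 2 ratios. They came from genes past the threshold in both libraries and with the same sign in both wild-type lanes. Also named are 8 each way between genotypes and 5 with the largest difference of genotype ratios between classes each way (at least 50 CPM). The others are 5 against each single-positive class and members of 27 gene lists. The members and lists were chosen with earlier results of these data known. Doublets were not removed, and Scrublet (scanpy 1.11.5) gave 6 automatic calls per library, so the highest scores were removed as an alternative. Of the cells so removed, 6 of 43 in the wild type and 22 of 55 in the knockout were double-positive. The class held 8.75% and 16.4% of gated cells. Without the removed cells, 102 genes were higher and 56 lower in both libraries. The part of doublets in the class was not tested. Other alternatives changed depth, filters, pseudocount, scaling, gate, lanes and comparison cells. The ratio script was checked on simulated data. Some listed genes are not reported here.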

Additional observations from a re-analysis of the deposited data

Results flagged for a closer look

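A few genes were at least 1.5-fold higher in the double-positive cells of 1 library and at least 1.5-fold lower in those of the other. With 1 library per genotype the difference was not tested for any of them. Tnf, the inflammatory cytokine, had a log2 ratio of 0.84 in the wild type (46.6 against 25.6 CPM) and -0.70 in the knockout (95.5 against 155 CPM), with wild-type lane ratios of 0.33 and 2.31. Vcam1, an adhesion molecule, had ratios of 0.66 (29.1 against 18.1 CPM) and -0.79 (126 against 218 CPM), and its wild-type lanes had opposite signs, -0.14 and 1.49. Bhlhe40, a transcription factor, stood the other way, at -0.70 (26.2 against 43.1 CPM) and 0.89 (138 against 74.1 CPM), and was lower in both wild-type lanes (-0.53 and -0.98). The 4 remaining genes were at low levels. Srrt had ratios of -0.65 and 1.13, and Eif2s3x of -0.66 and 0.59. Msl3 had ratios of 0.69 and -0.93, and Acyp1 of 0.63 and -0.63.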

How the results depend on the processing

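No paired analysis was possible because each genotype has 1 library and no value comes from a test. The share of double-positive cells, 0.606% in the wild type and 3.55% in the knockout at 1000 UMIs, was 1.90% and 11.3% at 2000 UMIs, and 8.75% and 16.4% without thinning. It was 0.329% on wild-type lane 1 alone and 1.22% on lane 2 alone. Unthinned cells with 2000 to 4000 UMIs, an alternative chosen after seeing the data, gave 6.57% and 18.8%. The knockout share was the higher at each setting. The 105 genes higher and 59 lower in double-positive cells became 65 higher with a pseudocount of 10 CPM. They became 176 and 104 with a filter of 10 CPM, 63 and 27 with 50 CPM, and 56 and 31 without matching on depth. With at least 2 UMIs of each gate gene they were 208 and 117, of which 64 and 33 were among the main ones, and 61 genes were higher against cells without Ccr2. The 466 genes higher and 278 lower in knockout members became 294 and 157 with a pseudocount of 10 CPM, 241 and 162 with a filter of 50 CPM, and 876 and 529 with at least 2 UMIs of each gate gene. Median-of-ratios scaling gave 471 lower genes, and wild-type lane 2 alone gave 815 higher genes. With at least 2 UMIs of each gate gene, the wild-type ratio of Ccl24 was -0.35 and the knockout to wild-type ratio of H2-M2 was 0.11, both opposite in sign to the values above. The cause was not tested, except that a filter or a smaller class sets how many genes are compared or how few UMIs they rest on. Leaving out haemoglobin-rich cells or another seed, both also chosen after seeing the data, moved none of these counts or shares beyond the limits used. Depth limits the class, since the median member was called from 1 Timd4 UMI, and so does the C1q gate, which at 1% left 122 knockout members.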

Other observations

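The genes in this paragraph were chosen after their values were seen, from among those at least 1.5-fold apart in both libraries. Both ligands of the inhibitory receptor PD-1 were higher in double-positive cells. Cd274 stood at 79.2 against 46.0 CPM in the wild type and at 245 against 137 CPM in the knockout, and Pdcd1lg2 at 41.9 against 19.2 CPM and at 45.0 against 24.7 CPM. Il1r2, the decoy receptor for IL-1, stood at 96.0 against 57.1 CPM and at 229 against 117 CPM, and Il18bp, which binds IL-18, at 94.3 against 41.4 CPM and at 67.9 against 43.0 CPM. Prdm1, the transcription factor Blimp-1, had log2 ratios of 0.85 and 0.63.

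Cd22, a sialic acid-binding receptor best known from B cells, had log2 ratios of 1.65 and 0.86, with lane ratios of 1.62 and 1.72. The list of B and plasma cell genes summed to 375 against 143 CPM in the wild type and 208 against 222 CPM in the knockout, and its part in the value was not tested. Among lower genes, Cd14, a coreceptor for lipopolysaccharide, had log2 ratios of -0.82 and -0.87, and Vim of -1.85 and -0.73.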
